A study of Mus musculus with 8 samples.

Results

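The genes of autophagy and of the lysosome were compared in pancreatic islets of ob/ob and ob/+ mice. The set was chosen by name and holds 41 genes out of the 20715 listed, 25 of them of the autophagy machinery and 16 of the lysosome. All 41 had values in each of the 8 libraries, and all reached 1 FPKM (fragments scaled to transcript length and library size) in at least 4 of them and were tested. The 4 ob/ob libraries came from 12-week-old C57BL/6 mice with 2 mutant copies of the leptin gene, and the 4 ob/+ libraries from mice of the same strain and age with 1 mutant copy, so the comparison holds no mouse with 2 intact copies. The ob mutation is present in every tissue, and loss of leptin is known to bring obesity and insulin resistance, so the islets came from animals that differ in the whole body. The labels give neither the sex nor whether each library is 1 mouse, and the p-values rest on the scatter of the libraries, part of which may be technical.

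Autophagy is the route by which a cell wraps part of its own content in a double membrane and hands it to the lysosome. A kinase complex starts the process, a lipid kinase complex marks the membrane, conjugation enzymes attach proteins of the LC3 and GABARAP family to it, and cargo receptors tie the load to that family. The lysosome is an acidic compartment whose enzymes break the load down, and the transcription factors TFEB and TFE3 are known to drive many of its genes. In beta cells the pathway is known to remove worn mitochondria and surplus insulin granules, and mice that lack Atg7 in beta cells are known to lose beta cell mass and function.

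Islet identity was clear from insulin, whose 2 genes took 57.1% to 65.6% of summed FPKM in ob/ob and 42.0% to 54.3% in ob/+. Acinar cells, the enzyme-making cells that surround islets, gave 3.33% to 11.6% of summed FPKM in ob/ob and 7.68% to 26.1% in ob/+ over 39 markers, with ob/+ 4 the richest library. FPKM are scaled to the size of a library, so a larger acinar or insulin share tends to lower the value of every other gene. The deposited values did not add up to a common total. Summed FPKM ran from 920734 to 1004230 in ob/ob and from 820968 to 880570 in ob/+, and no alternative scaling set these sums equal. Among the 41 genes the lowest of the 4 ob/+ values was that of ob/+ 4 for 36. The members differed widely in level: prosaposin (Psap) had the highest mean, 308 ± 21.4 FPKM in ob/ob and 402 ± 57.1 in ob/+, and the transcription factor Tfeb the lowest, 2.26 ± 0.475 in ob/ob and 2.97 ± 0.886 in ob/+ (means ± SD, n = 4 each).

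In ob/ob islets 3 of the 41 genes rose and 7 fell. Those that rose were Wipi1, a lipid-binding protein of the forming autophagosome, and the lysosomal enzymes Glb1 and Gusb. Those that fell were Map1lc3a, one of the LC3 proteins, the cargo receptor Optn, the lysosomal membrane proteins Lamp1 and Lamp2, the lysosomal enzymes Gaa and Hexa, and Psap. No change was large, with mean FPKM in ob/ob at 0.660 to 1.52 times those in ob/+ and log2 fold changes between -0.57 and 0.57. The 10 genes were 24.4% of the members, where 18.8% of 11747 tested genes passed (8.21% higher and 10.6% lower in ob/ob), so the share was not far from that of genes at large. By role, 3 of the 25 autophagy genes passed (12%) and 7 of the 16 lysosome genes (43.8%); whether these shares differ was not tested. At an unadjusted p under 0.05, 15 members passed in limma: the 10 and Atg13, Atg3, Nbr1, Tfe3 and Npc2. Of all 11747 tested genes 3670 did so. The median log2 fold change of the members was -0.04, that of all tested genes -0.07. The values of the 4 ob/ob and 4 ob/+ libraries did not overlap for 9 members, 4 higher and 5 lower in ob/ob, against 20.5% of all tested genes (9.75% higher and 10.7% lower).

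The split of the calls moved with the scaling of the libraries. It was 3 higher and 7 lower with the deposited scaling, 10 and 7 with median centring, 4 and 1 under a scaling without the 10 most abundant genes, and 1 and 27 under one without acinar genes. Under these settings, in the same order, 18.8%, 29.2%, 16.7% and 64.6% of all tested genes passed. Of those, 43.7%, 53.2%, 65.6% and 6.35% were higher in ob/ob, so the split among all genes moved as well. Under the scaling without acinar genes the median of all tested genes lay at -0.33. The 10 genes kept their sign under every one of the alternatives tried in which they were tested, and Map1lc3a and Glb1 kept their call under each of the 20. Without ob/+ 4, the library richest in acinar RNA, 22 members passed (3 higher, 19 lower), where 41.6% of all tested genes did. In bulk RNA, fewer cells of a type and less RNA per cell cannot be told apart.

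**Figure D1:**
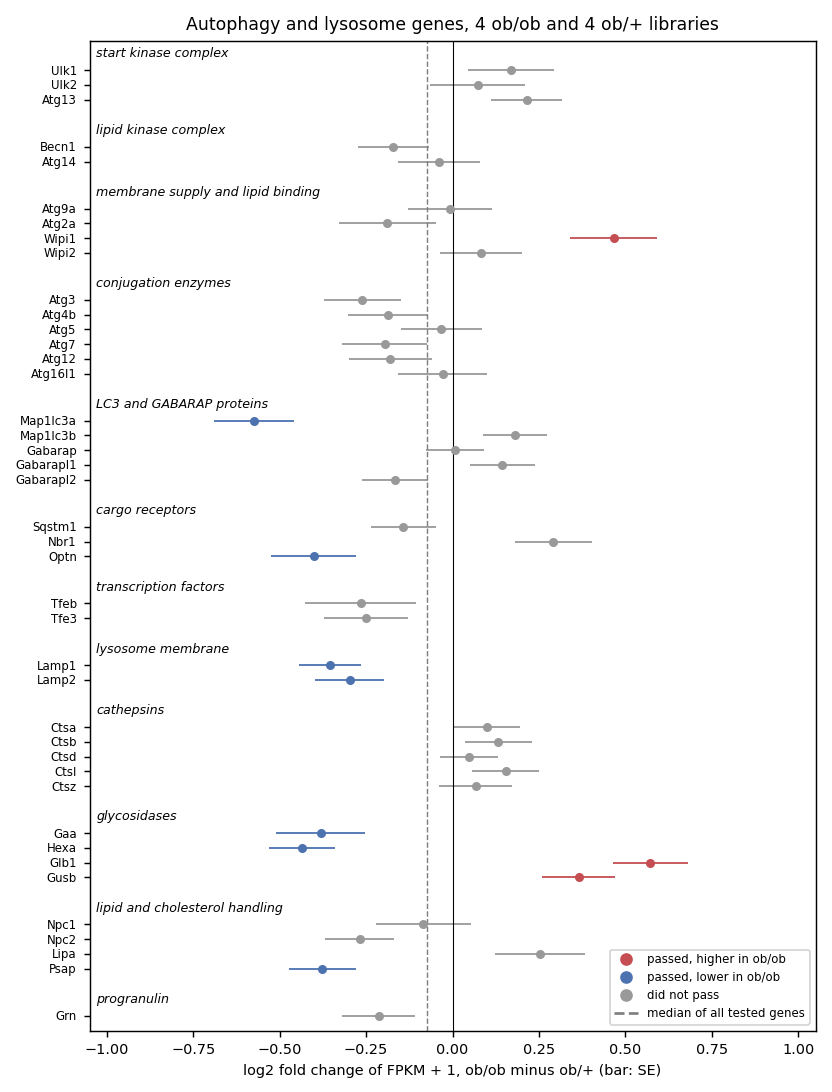
Log2 fold change of FPKM + 1 (ob/ob minus ob/+, x axis) of the 41 genes, listed by role, with the standard error as a bar, and the median of all tested genes as a dashed line. Coloured points passed the test: Wipi1, Glb1 and Gusb lie to the right, and Map1lc3a, Optn, Lamp1, Lamp2, Gaa, Hexa and Psap to the left.

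None of the genes that start autophagy passed the limma test (Atg13 alone at an unadjusted p under 0.05). Of the 11747 tested genes 4396 had a log2 fold change above zero. The kinases Ulk1 and Ulk2 and their partner Atg13 had log2 fold changes of 0.17, 0.07 and 0.21, all 3 above zero. Atg13, the most abundant of them, had 36.4, 39.8, 33.8 and 34.5 FPKM in ob/ob libraries 1 to 4, against 32.5, 34.6, 30.2 and 27.0 in ob/+ libraries 1 to 4 (log2 fold change 0.21 ± 0.10 SE, adjusted p = 0.159). The 2 groups overlapped through ob/+ 2. Atg13 passed as higher with median centring and upper-quartile scaling (adjusted p = 0.0178 and 0.0158), and Ulk1 with median centring (adjusted p = 0.0322). In the lipid kinase complex, which makes the phosphoinositide that marks the membrane, Becn1 had 29.3, 32.6, 31.9 and 30.9 FPKM in ob/ob, against 39.5, 36.7, 35.7 and 29.6 in ob/+ (-0.17 ± 0.10 SE, adjusted p = 0.273). Without ob/+ 4, whose value lay within the ob/ob range, Becn1 passed as lower (-0.25, adjusted p = 0.0137). In the annotation 43.9% of the exonic bases of Becn1 overlap Cntd1 on the opposite strand, and no source used here says whether strand was kept. Other members overlap other genes too, among them Atg9a (31.8%) with Gm29253 on the same strand. Overlaps on the opposite strand include those of Gabarapl1 (28.3%), Sqstm1 (17.3%) and Hexa (12.8%). Atg14, the subunit that directs the complex to autophagy, was at 4.26 ± 0.401 FPKM in ob/ob and 4.40 ± 0.334 in ob/+ (means ± SD, n = 4 each).

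Wipi1 rose among the genes of membrane supply. It binds the phosphoinositide made by the lipid kinase complex and lies on chromosome 11 (109573331 to 109611967, minus strand, GRCm38). Its values were 13.5, 15.3, 14.3 and 16.2 FPKM in ob/ob, against 10.9, 13.0, 10.3 and 8.13 in ob/+. Every ob/ob library stood above every ob/+ library, though ob/ob 1 and ob/+ 2 lay close (log2 fold change 0.47 ± 0.13 SE, adjusted p = 0.0102). The call ended under a scaling without acinar genes (0.18, adjusted p = 0.116) and with the acinar share as a covariate (0.24, adjusted p = 0.184). Its relative Wipi2 was at 15.2 ± 1.115 FPKM in ob/ob and 14.4 ± 2.10 in ob/+ (means ± SD, n = 4 each; adjusted p = 0.68). Atg9a, the membrane protein whose vesicles seed the autophagosome, had a log2 fold change of -0.01. For the lipid transfer protein Atg2a it was -0.19 (adjusted p = 0.382), and Atg2a passed as lower without ob/+ 4 (-0.33, adjusted p = 0.0184).

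The conjugation enzymes all had fold changes below zero and none passed in limma (Atg3 alone at an unadjusted p under 0.05). They are the E1-like Atg7, the E2-like Atg3, the protease Atg4b, and Atg5, Atg12 and Atg16l1, which together form the ligase for LC3. Their log2 fold changes ran from -0.26 to -0.03, with a median of -0.18, where 7351 of the 11747 tested genes lay below zero. Atg3 was the most abundant and had 13.5, 14.2, 15.5 and 14.03 FPKM in ob/ob, against 18.7, 18.6, 17.2 and 14.97 in ob/+ (-0.26 ± 0.11 SE, adjusted p = 0.104). Its first 3 ob/+ libraries stood above all 4 ob/ob libraries, and ob/+ 4 fell among them. Without ob/+ 4 the genes Atg3, Atg4b, Atg7 and Atg12 passed as lower (adjusted p = 0.0038, 0.0127, 0.0312 and 0.0277), and Atg5 and Atg16l1 did not. The median of the 6 was -0.26 in that fit and that of all tested genes -0.15. For Atg7, whose loss in beta cells is well studied, the 4 values were 3.53, 3.89, 4.39 and 3.94 FPKM in ob/ob, against 5.14, 5.13, 4.57 and 3.84 in ob/+.

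Of the 5 LC3 and GABARAP proteins, which coat the autophagosome and dock its cargo, Map1lc3a fell and the other 4 did not pass. Map1lc3a (chromosome 2, 155276297 to 155278073, plus strand) had 18.7, 21.0, 20.2 and 15.8 FPKM in ob/ob, against 34.0, 25.3, 28.4 and 27.0 in ob/+. The groups were well apart, with the highest ob/ob value below the lowest ob/+ value (-0.57 ± 0.12 SE, adjusted p = 0.000717), and the mean in ob/ob was 0.660 times that in ob/+. Map1lc3b, the LC3 form most used as an autophagosome marker, had 80.3, 81.6, 75.7 and 86.4 FPKM in ob/ob, against 72.9, 78.2, 71.0 and 63.8 in ob/+ (0.18 ± 0.09 SE, adjusted p = 0.192). The 2 groups overlapped, and Map1lc3b passed as higher with median centring and upper-quartile scaling. Gabarap was the most abundant of the family, with 248, 282, 261 and 271 FPKM in ob/ob, against 266, 289, 239 and 263 in ob/+ (0.01 ± 0.08 SE). Its groups lay over each other, and under a scaling without acinar genes the same gene was called lower at -0.30. Gabarapl1 had 92.6, 97.3, 92.7 and 96.4 FPKM in ob/ob, against 92.6, 93.3, 83.7 and 74.3 in ob/+ (0.14 ± 0.09 SE, adjusted p = 0.304). Gabarapl2 had 91.1, 99.3, 98.0 and 105.5 FPKM in ob/ob, against 125.8, 115.4, 105.5 and 97.1 in ob/+ (-0.17 ± 0.10 SE, adjusted p = 0.244). In both genes the groups overlapped. Gabarapl1 passed as higher with median centring (0.22, adjusted p = 0.0464). Gabarapl2 passed as lower without ob/+ 4 (-0.23, adjusted p = 0.0355) and under a scaling without acinar genes (-0.47).

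Within the family the balance between members can be read free of the library scaling, as a ratio of values in 1 library. Map1lc3a stood at 0.233, 0.257, 0.266 and 0.182 of Map1lc3b in ob/ob, against 0.467, 0.324, 0.40 and 0.422 in ob/+. The ratio was lower in each ob/ob library than in each ob/+ library. It was chosen after the values were seen and is given as a description. Map1lc3b has 4 processed pseudogenes with 96.1% to 99.7% identity over 280 to 285 aligned bases, and Gabarapl2 has 6 with 90.8% to 99.4% identity, so their values are less certain than that of Map1lc3a, for which no such copy was found.

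The cargo receptors went different ways. Optn, optineurin, a receptor for mitochondria and bacteria, fell to 3.40, 2.86, 2.91 and 3.24 FPKM in ob/ob, against 4.79, 4.67, 4.78 and 3.52 in ob/+ (-0.40 ± 0.12 SE, adjusted p = 0.0235). The groups did not overlap, but ob/+ 4 stood next to ob/ob 1. The call of Optn ended under a scaling without the 10 most abundant genes (-0.31, adjusted p = 0.153) and on leaving out ob/ob 2, ob/ob 3, ob/+ 1, ob/+ 2 or ob/+ 3 (adjusted p = 0.0558 to 0.0964). Nbr1, a receptor for protein aggregates, had 50.7, 53.3, 53.6 and 56.3 FPKM in ob/ob, against 45.6, 49.8, 47.0 and 33.4 in ob/+. Its groups did not overlap either, yet it did not pass (0.29 ± 0.11 SE, adjusted p = 0.068) except with 3 of the other scalings and without ob/+ 2 (0.36, adjusted p = 0.0311). Sqstm1, which encodes p62, the receptor that is itself degraded by autophagy, had 146, 151, 134 and 125 FPKM in ob/ob, against 169, 159, 154 and 133 in ob/+ (-0.14 ± 0.09 SE, adjusted p = 0.313). The groups overlapped, and without ob/+ 4 Sqstm1 passed as lower (-0.21, adjusted p = 0.0488).

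The transcription factors Tfeb and Tfe3, known as regulators of lysosomal genes, did not pass in limma (Tfe3 alone at an unadjusted p under 0.05). Tfe3 was the more abundant, with 12.3, 12.0, 12.3 and 9.12 FPKM in ob/ob, against 14.8, 13.9, 14.4 and 11.8 in ob/+ (-0.25 ± 0.12 SE, adjusted p = 0.16). Tfeb had 2.22, 2.91, 2.11 and 1.78 FPKM in ob/ob, against 3.65, 3.36, 3.20 and 1.67 in ob/+ (-0.27 ± 0.16 SE, adjusted p = 0.271). In both genes ob/+ 1, 2 and 3 stood above all ob/ob libraries, and ob/+ 4 was the low one of its group. Without ob/+ 4 both passed as lower, Tfeb at -0.45 (adjusted p = 0.00613) and Tfe3 at -0.32 (adjusted p = 0.0157).

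Both factors bind E-boxes, which the CLEAR element of lysosomal genes contains, and the sequences before the starts of 4 lysosome genes are shown because the same E-box stands before genes that fell, rose or did not pass. They are the 250 bases before the start in RefSeq (GRCm38.p6), 5′ to 3′ on the gene's strand, with each CACGTG in capitals, and all 8 letters where TCACGTGA stood. GENCODE M21, used for gene positions, places the starts of Gaa, Ctsd and Glb1 at 119267887, 142388038 and 114401076. Most of the window of Ctsd, with its TCACGTGA, thus lies within the gene as placed there. So do the later part of the window of Gaa, without its CACGTG, and the last bases of that of Glb1. Lamp1 (chr8:13158911-13159160, plus strand) and Gaa (chr11:119267713-119267962, plus strand) fell, Glb1 (chr9:114400828-114401077, plus strand) rose, and Ctsd (chr7:142387828-142388077, minus strand) did not pass.
Lamp1: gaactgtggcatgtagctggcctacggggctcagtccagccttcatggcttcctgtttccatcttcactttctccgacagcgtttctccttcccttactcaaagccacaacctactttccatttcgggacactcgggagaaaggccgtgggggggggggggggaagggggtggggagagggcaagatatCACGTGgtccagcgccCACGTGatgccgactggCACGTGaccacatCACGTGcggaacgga
Gaa: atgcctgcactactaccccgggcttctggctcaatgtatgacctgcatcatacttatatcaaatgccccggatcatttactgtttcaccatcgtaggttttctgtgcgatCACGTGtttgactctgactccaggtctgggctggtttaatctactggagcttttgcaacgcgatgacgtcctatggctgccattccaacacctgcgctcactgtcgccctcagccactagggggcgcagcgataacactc
Glb1: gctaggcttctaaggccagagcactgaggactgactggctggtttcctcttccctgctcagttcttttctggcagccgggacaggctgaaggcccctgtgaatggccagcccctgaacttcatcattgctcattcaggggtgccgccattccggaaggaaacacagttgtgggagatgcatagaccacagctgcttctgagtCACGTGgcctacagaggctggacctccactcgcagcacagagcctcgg
Ctsd: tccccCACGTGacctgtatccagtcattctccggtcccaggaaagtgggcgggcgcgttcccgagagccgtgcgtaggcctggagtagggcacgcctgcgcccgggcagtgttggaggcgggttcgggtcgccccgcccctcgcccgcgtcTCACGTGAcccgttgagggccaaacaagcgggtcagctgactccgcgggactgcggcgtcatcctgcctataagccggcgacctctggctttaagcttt

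The region before Lamp1 held 4 matches to CACGTG, those before Gaa and Glb1 1 each, and that before Ctsd 2, of which 1 lay in TCACGTGA. Both motifs read the same on the 2 strands, and TCACGTGA contains CACGTG. In windows of 250 bases before to 50 after the start, CACGTG stood in 10 of the 35 members with an entry (28.6%), against 11.9% of 9100 tested genes and 8.09% of all 27025 genes with an entry. TCACGTGA stood in 3 of the 35 (8.57%), namely Atg3, Ctsa and Ctsd, against 2.25% of the tested genes and 1.12% of all genes. At least 4 matches to CACGTG in 1 window were found in 4 of the 9100 tested genes, of which Lamp1 was one. A match is a description of the letters, not a site in use. Of the 10 members with CACGTG, Glb1 rose, Lamp1 and Gaa fell, and Atg3, Atg5, Atg7, Atg14, Ctsa, Ctsd and Ctsl did not pass. Becn1, Atg12, Atg16l1, Map1lc3a, Ctsb and Npc1 were without an entry.

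Both lysosomal membrane glycoproteins fell. Lamp1 (chromosome 8, 13159161 to 13175338, plus strand), whose promoter is shown above, had 189, 206, 208 and 198 FPKM in ob/ob, against 273, 275, 262 and 219 in ob/+. All ob/ob values lay below all ob/+ values (-0.35 ± 0.09 SE, adjusted p = 0.00554), and the call ended only under a scaling without the 10 most abundant genes (-0.24, adjusted p = 0.157). Lamp2 (chromosome X, 38401357 to 38456454, minus strand), whose loss in humans causes Danon disease, had 62.8, 69.5, 75.8 and 79.7 FPKM in ob/ob, against 91.7, 98.7, 86.2 and 77.8 in ob/+. Here ob/ob 4 and ob/+ 4 crossed (-0.30 ± 0.10 SE, adjusted p = 0.0391). The call of Lamp2 ended on leaving out ob/ob 1, ob/ob 2, ob/+ 1, ob/+ 2 or ob/+ 3 (adjusted p = 0.0707 to 0.17), with median centring (-0.23, adjusted p = 0.0623), without the low-value filter (adjusted p = 0.0702), without the robust option (adjusted p = 0.0594) and under a scaling without the 10 most abundant genes (-0.18, adjusted p = 0.409).

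The cathepsins, the proteases of the lysosome, did not pass in limma, and none of the 5 had an unadjusted p under 0.05. Their 5 log2 fold changes were all slightly above zero, from 0.05 to 0.15, where 4396 of the 11747 tested genes lay above zero. The most abundant was the aspartic protease cathepsin D (Ctsd), with 147, 152, 159 and 158 FPKM in ob/ob, against 153, 158, 149 and 138 in ob/+ (0.05 ± 0.08 SE, adjusted p = 0.739). Its groups lay over each other. The cysteine protease Ctsb was at 60.1 ± 5.84 FPKM in ob/ob and 54.6 ± 2.60 in ob/+, Ctsl at 38.3 ± 2.31 in ob/ob and 34.3 ± 2.30 in ob/+, and Ctsz at 31.1 ± 3.61 in ob/ob and 29.5 ± 2.30 in ob/+ (means ± SD, n = 4 each). Ctsa, a carboxypeptidase that also shields the enzymes encoded by Glb1 and Neu1, was at 37.4 ± 1.27 FPKM in ob/ob and 34.9 ± 2.30 in ob/+ (means ± SD, n = 4 each; adjusted p = 0.516). Under a scaling without acinar genes Ctsd and Ctsa were called lower (-0.26 and -0.20), and with median centring Ctsl was called higher (0.22, adjusted p = 0.047). In the annotation 34.4% of the exonic bases of Ctsd are shared with the gene model Gm49369 on the same strand, and 26.9% of those of Ctsl overlap the antisense gene Gm47123.

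All 4 glycosidases, which cut sugars from glycogen, glycolipids and glycans, passed the test, 2 in each direction. Glb1, beta-galactosidase (chromosome 9, 114401076 to 114474898, plus strand), rose to 21.9, 23.3, 23.6 and 21.3 FPKM in ob/ob, against 14.8, 16.5, 15.1 and 13.0 in ob/+ (0.57 ± 0.11 SE, adjusted p = 0.000356). Gusb, beta-glucuronidase (chromosome 5, 129989011 to 130003049, minus strand), rose to 21.7, 21.8, 23.1 and 19.02 FPKM in ob/ob, against 16.5, 17.1, 16.4 and 15.4 in ob/+ (0.37 ± 0.11 SE, adjusted p = 0.0157). In both genes every ob/ob library stood above every ob/+ library. Hexa, the alpha subunit of beta-hexosaminidase, which breaks down ganglioside GM2 (chromosome 9, 59539540 to 59565109, plus strand), fell to 62.5, 70.3, 66.4 and 64.0 FPKM in ob/ob, against 91.6, 99.4, 90.1 and 77.4 in ob/+ (-0.44 ± 0.10 SE, adjusted p = 0.00176). Gaa, acid alpha-glucosidase, the enzyme of lysosomal glycogen breakdown (chromosome 11, 119267887 to 119285454, plus strand), fell to 45.1, 52.5, 52.7 and 38.7 FPKM in ob/ob, against 71.4, 65.7, 65.0 and 46.6 in ob/+ (-0.38 ± 0.13 SE, adjusted p = 0.0439). The values of Hexa did not overlap between groups, while for Gaa the ob/+ 4 library fell among the ob/ob ones.

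The calls of the glycosidases were not equally firm. Glb1 passed under each of the 20 alternatives, and Hexa under all but the scaling without the 10 most abundant genes (-0.32, adjusted p = 0.0683). Gusb no longer passed on leaving out ob/ob 1, ob/ob 2 or ob/ob 3 (adjusted p = 0.0549 to 0.0636), under a scaling without acinar genes (0.07, adjusted p = 0.513) or with the acinar share as a covariate (adjusted p = 0.0592). The call of Gaa ended on leaving out ob/ob 1, ob/ob 4, ob/+ 1, ob/+ 2 or ob/+ 3 (adjusted p = 0.0995 to 0.153), without the filter (adjusted p = 0.0985), without the robust option (adjusted p = 0.0619) and under a scaling without the 10 most abundant genes (adjusted p = 0.176). As a ratio within a library, Glb1 stood at 0.350, 0.331, 0.356 and 0.333 of Hexa in ob/ob, against 0.162, 0.166, 0.168 and 0.168 in ob/+. Both sets of 4 ratios were tight and far apart, also in ob/+ 4. The ratio of Gusb to Gaa was 0.415 to 0.491 in ob/ob and 0.232 to 0.330 in ob/+, again without overlap. These ratios, too, were chosen after the values were seen.

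**Figure D2:**
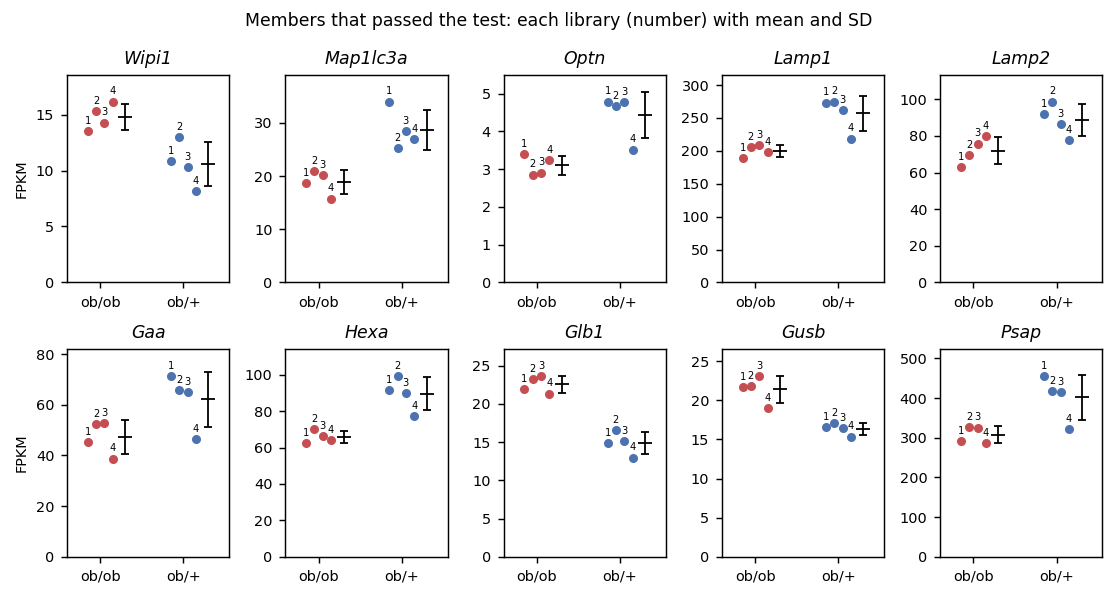
FPKM (y axis, from 0) of the 10 members that passed the test, 1 panel each, with the 4 ob/ob libraries left of the 4 ob/+ libraries, each numbered, and the mean with its SD as a black bar. The groups overlap in Lamp2, Gaa and Psap, where ob/+ 4 is low, and not in the other 7 genes.

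**Figure D3:**
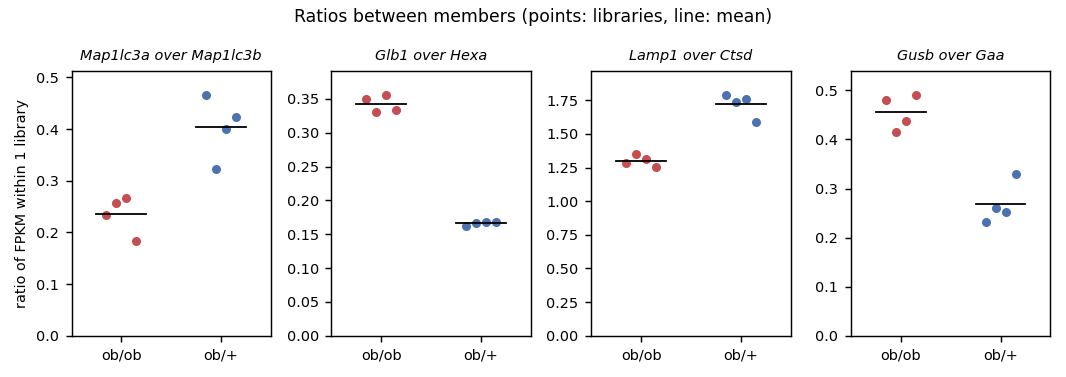
Ratio of 2 members' FPKM within each library (y axis, from 0) for the 4 ob/ob and 4 ob/+ libraries, with the group mean as a line. Glb1 over Hexa lies at 0.331 to 0.356 in ob/ob and 0.162 to 0.168 in ob/+, and the other 3 ratios do not overlap either.

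Among the genes of lipid and cholesterol handling Psap fell. It encodes prosaposin, the precursor of the saposins that help enzymes reach glycolipids, and lies on chromosome 10 (60277627 to 60302597, plus strand). Psap had 292, 326, 326 and 286 FPKM in ob/ob, against 456, 417, 415 and 321 in ob/+ (-0.38 ± 0.10 SE, adjusted p = 0.0069). The other ob/+ libraries stood well above all ob/ob libraries, and ob/+ 4 lay within the ob/ob range. The call ended only under a scaling without the 10 most abundant genes (-0.26, adjusted p = 0.0924). Npc2, the soluble cholesterol carrier of the lysosome, had 27.4, 31.7, 31.1 and 34.4 FPKM in ob/ob, against 40.0, 38.3, 35.8 and 36.3 in ob/+. Its groups did not overlap, but it did not pass (-0.27 ± 0.10 SE, adjusted p = 0.0637) as reported, while it did under 5 alternatives, among them leaving out ob/+ 4 (-0.28, adjusted p = 0.0125). Its partner in the membrane, Npc1, was at 6.35 ± 0.613 FPKM in ob/ob and 6.90 ± 1.53 in ob/+ (means ± SD, n = 4 each; adjusted p = 0.714). Lysosomal acid lipase (Lipa) was at 5.32 ± 0.865 FPKM in ob/ob and 4.29 ± 0.626 in ob/+ (means ± SD, n = 4 each; 0.25 ± 0.13 SE, adjusted p = 0.189), and passed as higher with median centring and upper-quartile scaling (adjusted p = 0.00797 and 0.0196). Progranulin (Grn), a secreted protein that reaches the lysosome with prosaposin, had 34.9, 39.4, 39.5 and 31.8 FPKM in ob/ob, against 46.4, 43.9, 42.6 and 36.5 in ob/+ (-0.21 ± 0.11 SE, adjusted p = 0.168). Without ob/+ 4 it passed as lower (-0.28, adjusted p = 0.0144).

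Lamp1 can be set against Ctsd, the most abundant cathepsin, in the same way as the ratios above. It stood at 1.28, 1.35, 1.31 and 1.25 times Ctsd in ob/ob, against 1.79, 1.74, 1.76 and 1.59 in ob/+. The ratio of the 2 RNAs was lower in each ob/ob library than in each ob/+ library. It, too, was chosen after the values were seen, and Ctsd shares exonic bases with Gm49369 as given above. Summed over all 41 genes, the values came to 2007 to 2170 FPKM in ob/ob and 2002 to 2465 in ob/+. The overlap came from ob/+ 4 alone, and the other ob/+ sums (2295 to 2465 FPKM) lay above every ob/ob sum.

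Markers of other cells moved with the genotype beside these genes. Among all tested genes 18.8% passed (8.21% higher and 10.6% lower in ob/ob). Of 6 alpha cell markers 5 fell and 1 rose, with glucagon (Gcg) at 8424 ± 1241 FPKM in ob/ob and 26865 ± 3256 in ob/+, and Ttr at 1799 ± 174 in ob/ob and 1440 ± 175 in ob/+ (means ± SD, n = 4 each). The summed alpha markers ran from 8666 to 12039 FPKM in ob/ob and from 25247 to 31791 in ob/+. All 4 tested of 5 delta and PP cell markers fell (Ppy, Sst, Rbp4 and Hhex), with sums of 2570 to 4073 FPKM in ob/ob and 9862 to 13332 in ob/+. Of 8 beta cell markers 2 rose and 3 fell, and their sums, nearly all insulin and Iapp, were 586089 to 708370 FPKM in ob/ob and 396166 to 497998 in ob/+. Of 3 tested duct markers Krt7 and Spp1 rose, and Krt19 did not pass (log2 fold change -0.33). The sums of 5 duct markers, nearly all Krt7 and Spp1, were 184 to 202 FPKM in ob/ob and 132 to 163 in ob/+. Sox9, at 0.50 ± 0.20 FPKM in ob/ob and 0.79 ± 0.15 in ob/+ (means ± SD, n = 4 each), and Cftr were too low to be tested. None of 6 endothelial markers passed in limma, also at an unadjusted p under 0.05 (0 of 6), with sums of 122 to 179 FPKM in ob/ob and 130 to 149 in ob/+. Macrophages are rich in lysosomes. None of 11 tested of 16 macrophage markers passed in limma. At an unadjusted p under 0.05 there were 2, Csf1r and Cd14, with log2 fold changes of -0.35 and -0.34. Of the 11, 4 lay above zero and 7 below, with a median of -0.18. Among all 11747 tested genes 4396 lay above zero and 7351 below, with a median of -0.07. The sums of the macrophage markers were 87.2 to 149 FPKM in ob/ob and 96.9 to 142 in ob/+, led by C1qa at 51.0 ± 4.77 in ob/ob and 44.4 ± 3.98 in ob/+ (means ± SD, n = 4 each). Of 39 tested acinar markers Prss1 and Gm5771 rose and Cela3a fell, while 35 of the 39 had a log2 fold change below zero (median -0.89) and 3 rose and 17 fell without the robust option. Their sums were 33454 to 110109 FPKM in ob/ob and 65949 to 229881 in ob/+. No marker of these lists was at 0 in all 8 libraries. The part of these cells in the values of the autophagy and lysosome genes was not tested.

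Further genes of the pathway, 144 in 8 lists that hold none of the 41, gave 8 higher and 21 lower of 142 tested (20.4%, again near the 18.8% of all tested genes). The split of these calls turned with the scaling: it was 25 higher and 26 lower with median centring, 13 and 4 under a scaling without the 10 most abundant genes, and 2 and 96 under one without acinar genes. Under these settings 29.2%, 16.7% and 64.6% of all tested genes passed, of which 53.2%, 65.6% and 6.35% were higher. The proton pump that acidifies the lysosome and the insulin granule had 1 higher and 7 lower of 19 tested subunits. Of its 9 V1 subunits, the part that splits ATP, 6 fell, among them Atp6v1e1 (76.3 ± 3.77 FPKM in ob/ob and 104 ± 7.80 in ob/+), Atp6v1d (61.3 ± 3.31 in ob/ob and 77.8 ± 9.03 in ob/+) and Atp6v1a (17.0 ± 2.08 in ob/ob and 23.6 ± 4.39 in ob/+). The V0 membrane subunit Atp6v0c fell to 236 ± 7.84 FPKM in ob/ob, against 291 ± 22.6 in ob/+ (means ± SD, n = 4 each; adjusted p = 0.0133). Of these 4, Atp6v1e1 kept its call in all but 1 alternative. The count of lower subunits moved with the libraries: it was 1 without ob/+ 1, 2 without ob/ob 1 or ob/+ 2, 3 without ob/ob 2, 4 without ob/+ 3 and 11 without ob/+ 4, where 41.6% of all tested genes passed and 22.8% of those were higher. Among all tested genes 12.4% passed without ob/+ 1, 13.5% without ob/ob 1, 15.4% without ob/+ 2, 14.2% without ob/ob 2 and 13.2% without ob/+ 3. No pump subunit was called lower under a scaling without the 10 most abundant genes, where 16.7% of all tested genes passed. Under one without acinar genes 15 subunits were called lower, where 64.6% of all tested genes passed.

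Genes by which the lysosome reports nutrients to the kinase complex mTORC1 had 4 lower and none higher of 20 tested (20%, near the 18.8% of all tested genes). There were 2 lower and 1 higher under a scaling without the 10 most abundant genes, where 16.7% of all tested genes passed. Under one without acinar genes 17 were lower, where 64.6% of all tested genes passed. Without ob/+ 4 there were 12 lower and 1 higher, where 41.6% of all tested genes passed. The 4 that were lower as reported were the Rag GTPases Rragb (10.2 ± 0.523 FPKM in ob/ob and 16.8 ± 2.41 in ob/+, log2 fold change -0.66 ± 0.12 SE, adjusted p = 0.000211) and Rragc (22.5 ± 1.48 in ob/ob and 31.6 ± 4.82 in ob/+), folliculin (Flcn, 14.7 ± 1.75 in ob/ob and 20.6 ± 3.58 in ob/+) and its partner Fnip2. Fnip2 was at 6.22 ± 0.624 FPKM in ob/ob and 11.7 ± 2.42 in ob/+ (means ± SD, n = 4 each), a log2 fold change of -0.79 ± 0.13 (SE, adjusted p = 0.000102) and the widest among the members and the further genes tested. Folliculin and its partners act on the Rag proteins and control whether TFEB enters the nucleus. Rragb and Fnip2 passed under every alternative tried. The call of Flcn ended on leaving out ob/ob 4, ob/+ 1 or ob/+ 3 (adjusted p = 0.0526 to 0.0765), under a scaling without the 10 most abundant genes and without the filter.

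Of 33 other hydrolases 2 rose and 3 fell (15.2%, against 18.8% of all tested genes). The split was 11 higher and 4 lower with median centring, 4 and 0 under a scaling without the 10 most abundant genes, and 1 and 18 under one without acinar genes. Under these settings 29.2%, 16.7% and 64.6% of all tested genes passed, of which 53.2%, 65.6% and 6.35% were higher. Aga, aspartylglucosaminidase, rose to 78.1 ± 5.39 FPKM in ob/ob, against 52.4 ± 7.11 in ob/+, and Gla, alpha-galactosidase, to 4.57 ± 0.725, against 3.14 ± 0.490 in ob/+. Asah1, acid ceramidase, fell to 65.9 ± 4.48 FPKM in ob/ob, against 86.8 ± 5.52 in ob/+, and the peptidase Tpp1 to 21.1 ± 2.04, against 29.6 ± 3.84 in ob/+ (means ± SD, n = 4 each). As with the 4 glycosidases above, enzymes of the same compartment thus moved in both directions. The calls of Asah1, Tpp1, Rragc, Rab7 and Vps11 ended under a scaling without the 10 most abundant genes (adjusted p = 0.137, 0.0617, 0.0676, 0.164 and 0.105). The call of Gla ended on leaving out ob/ob 4 or ob/+ 1 (adjusted p from 0.0638 to 0.111). It also ended under a scaling without acinar genes (0.19, adjusted p = 0.161) and with the acinar share as a covariate (0.27, adjusted p = 0.199). Of 16 other membrane proteins 18.8% passed, about the share of all tested genes. Abcb9, a peptide transporter, rose to 15.7 ± 2.25 FPKM in ob/ob, against 10.2 ± 1.30 in ob/+. The calcium and sodium channel gene Tpcn1 fell to 7.84 ± 1.06, against 12.5 ± 1.85 in ob/+ (means ± SD, n = 4 each). Cd63 passed as lower as well (-0.24, adjusted p = 0.041) but not when any library other than ob/+ 4 was left out (adjusted p = 0.0508 to 0.144). Its call also ended with median centring, upper-quartile scaling and a scaling without the 10 most abundant genes (adjusted p = 0.2, 0.154 and 0.563). The same held without the robust option, with a replicate block and without both ob/+ 4 and ob/ob 1.

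In the sorting of enzymes to the lysosome 1 of 9 genes rose and 2 fell (33.3%, against 18.8% of all tested genes). Gnptg, a subunit of the enzyme that tags hydrolases with mannose 6-phosphate, rose to 115 ± 5.47 FPKM in ob/ob, against 86.0 ± 7.92 in ob/+, though 49.5% of its exonic bases overlap Unkl on the opposite strand. The sorting receptor Sort1 fell to 21.8 ± 1.82 FPKM in ob/ob, against 31.9 ± 5.55 in ob/+ (means ± SD, n = 4 each; adjusted p = 0.00323). M6pr, a receptor for the tag, passed as lower (adjusted p = 0.0444) but not when any library other than ob/+ 4 was left out (adjusted p = 0.0507 to 0.161). Its call also ended under a scaling without the 10 most abundant genes, without the filter and without the robust option (adjusted p = 0.469, 0.0585 and 0.0511). Of 13 tested fusion genes 2 fell (15.4%), the small GTPase Rab7 (124 ± 7.81 FPKM in ob/ob and 160.2 ± 15.3 in ob/+) and the tethering subunit Vps11 (18.1 ± 1.2 in ob/ob and 25 ± 3.70 in ob/+). Of 14 tested receptors for organelles 2 rose and none fell (14.3%). Both are receptors for the endoplasmic reticulum, Ccpg1 (132 ± 4.93 FPKM in ob/ob and 98.9 ± 13.7 in ob/+) and Fam134b (15.6 ± 2.62 in ob/ob and 11.1 ± 2.47 in ob/+; means ± SD, n = 4 each). Sec62, Rtn3 and Tex264, known receptors for the same organelle, did not pass (log2 fold changes -0.01, -0.06 and -0.18). Fam134b no longer passed without ob/ob 1, ob/ob 4, ob/+ 1 or ob/+ 2 (adjusted p = 0.0902 to 0.104). Its call was also lost with median centring (adjusted p = 0.129), upper-quartile scaling (0.147), a scaling without acinar genes (0.512) and without the filter (0.0768). Ccpg1 shares 42.9% of its exonic bases with the gene model Gm44503, and 28.9% overlap Pigb on the opposite strand. The calls of Ccpg1 and Gnptg ended under a scaling without acinar genes (adjusted p = 0.23 and 0.227), and that of Ccpg1 also with the acinar share as a covariate (adjusted p = 0.0775). Of 18 other core genes of autophagy Atg4a rose and Uvrag fell (11.1%). Each was close to the threshold (adjusted p = 0.0477 and 0.0226) and lost on leaving out any of several libraries (adjusted p up to 0.144 and 0.104). Atg4a was also lost under a scaling without acinar genes (0.09, adjusted p = 0.512) and with the acinar share as a covariate (adjusted p = 0.15). It was lost as well without the filter, without the robust option and without both ob/+ 4 and ob/ob 1. Uvrag was also lost under a scaling without the 10 most abundant genes (adjusted p = 0.2).

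**Figure D4:**
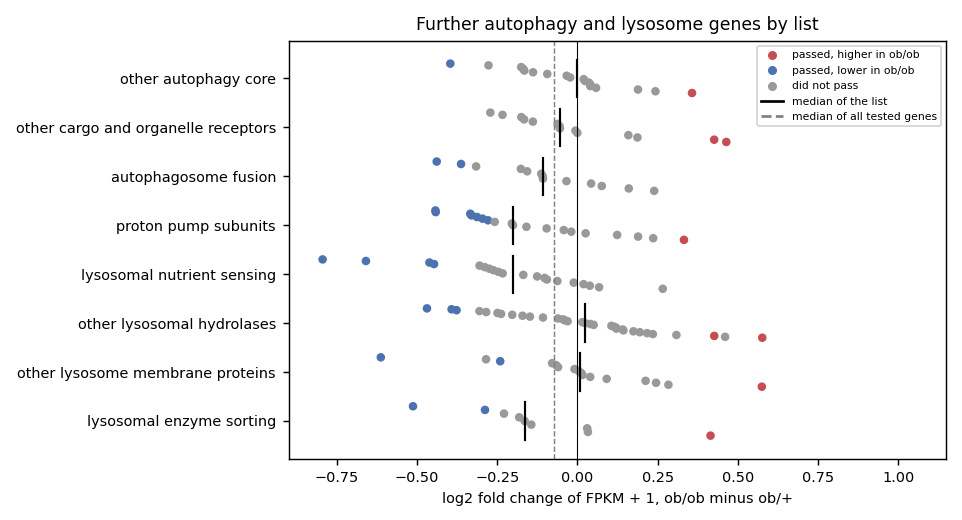
Log2 fold change of FPKM + 1 (ob/ob minus ob/+, x axis) of the 142 further tested genes in 8 lists (rows), 1 point a gene, with the median of each list as a black line and that of all tested genes as a dashed line. The points that passed lie to the left in the proton pump list (7 of 8) and in the nutrient sensing list (4 of 4), and on both sides among the hydrolases.

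**Figure D5:**
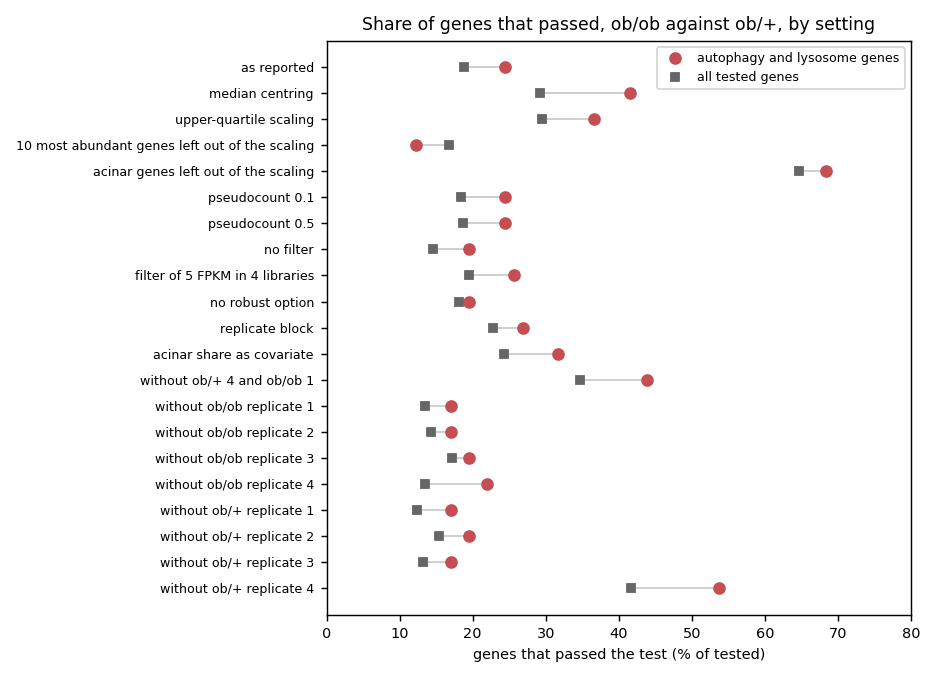
Share of tested genes that passed (x axis, percent) under each setting (rows), for the 41 autophagy and lysosome genes (circles) and for all tested genes (squares). As reported the values are 24.4% and 18.8%; the members' share is the higher one under every setting shown but the scaling without the 10 most abundant genes (12.2% and 16.7%), and both are highest without acinar genes in the scaling (68.3% and 64.6%).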

How the data were processed

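RNA of hand-picked islets was sequenced, per the labels' protocols, and the deposited values are FPKM, 1 file per library. The unit is inferred, since neither labels nor headers name it: low values of short genes times transcript length tended towards whole multiples of 1 step (mean cosine of the phase 0.373 to 0.503, against 0.201 to 0.326 without the length). The submitters' processing notes list Trimmomatic 0.36, DESeq2 1.20.0, mm10 and GRCm38, with no role for any. For the aligner and quantifier the sources used here give no name. Of 20715 genes 3314 had no value. FPKM carry no counts, and no source used here states the depth. The step found above ran from 57.15 to 61.3 over the 8 libraries, but no depth was derived from it. No counting intervals are given.

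Groups follow the labelled genotype. A gene was tested if 4 or more libraries reached 1 FPKM (11747 genes). The test was limma 3.58.1 (R 4.3.3) on log2(FPKM + 1), using the trend and robust options of eBayes (statmod 1.5.0). It was two-sided, and a gene passed at a Benjamini-Hochberg adjusted p below 0.05 over all tested genes. Fold changes on this scale understate those of low genes. The test was checked on simulated data. There it recovered 41% of 100 genes given a log2 change of 0.5 and 94% of 100 given a change of 1. Of the calls 2.17% were false. A gene that did not pass is thus not shown to be unchanged. The members and lists were chosen with earlier results of these data known, so no test was made over a list. Values in full were given for every called member, the most abundant tested member of each role without a call, and the LC3 and GABARAP proteins. Of each further list up to 4 called genes with the smallest p were given as means, and of marker lists up to 3 of the most abundant genes. Other genes and values were chosen after they were seen. No libraries were duplicates (at most 0.766% identical values; correlation of log2 values 0.978 to 0.993 within and 0.955 to 0.965 between groups). Positions and overlaps come from GENCODE M21 (GRCm38), promoters from RefSeq, and similar transcripts from minimap2 2.31 (at least 90% identity over 100 bases). Alternatives covered scaling, pseudocount, filter, the robust option, a replicate block, the acinar share as covariate and leaving out libraries.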

Additional observations from a re-analysis of the deposited data

Results flagged for a closer look

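Of 82 groups of 4 values (41 genes in each genotype), 5 had 1 library far from the other 3, and chance flags about 5% of groups. In 4 of the 5 the library was ob/+ 4, which was low. It had 11.3 FPKM of Wipi2, against 15.2 to 15.6 in the other ob/+ libraries. It had 6.09 FPKM of Atg12, against 7.53 to 7.79 in the others. Optn stood at 3.52 FPKM in ob/+ 4 and at 4.67 to 4.79 in the others, and Lipa at 3.36 FPKM and 4.54 to 4.70. The remaining one was Tfe3 in ob/ob 4, at 9.12 FPKM, against 12.0 to 12.3 in the other ob/ob libraries. The acinar share was 26.1% in ob/+ 4 and 6.55% in ob/ob 4, and its part in these values was not tested.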

How the results depend on the processing

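The 41 genes gave 10 calls as reported, 17 with median centring, 5 under a scaling without the 10 most abundant genes, 28 under one without acinar genes and 18 without both ob/+ 4 and ob/ob 1. For the further pathway genes, 29 as reported, the same settings gave 51, 17, 98 and 52, and upper-quartile scaling 51. Of all tested genes 2208 passed as reported, 3429 with median centring and 3465 with upper-quartile scaling. The count was 1965 when the 10 most abundant genes were omitted from the scaling, 7593 when acinar genes were, and 4000 without both libraries. The members' median of -0.04 became 0.053 without the 10 most abundant genes in the scaling, -0.31 without the acinar genes in it, -0.20 with the acinar share as a covariate and -0.15 without both libraries. Leaving out 1 library gave 7 to 22 member calls, 16 to 66 calls among the further genes, 1434 to 4832 among all genes and member medians of -0.15 to 0.00063, with the highest counts without ob/+ 4 and the lowest counts of all genes and further genes without ob/+ 1. Gabarap (-0.30), Ctsa (-0.20) and Ctsd (-0.26) turned from positive and not passing to called lower under a scaling without acinar genes, as the median of all tested genes moved to -0.33. Among single named genes, 1119 of the recomputed values kept their side of the threshold, 113 lost a call, 58 gained one and 3 turned. Both pseudocounts and the stricter filter lost no member call that could be tested. Except where a value is given, the cause of these moves was not tested. With the labelled replicate number as a replicate block, 11 members, 37 further genes and 2674 genes in all passed, while Atp6v1a (adjusted p = 0.057) and Cd63 (0.0671) lost their call as lower. The numbers are not known to pair the libraries: deviations of same-numbered libraries correlated at -0.22 to 0.21, and for 3 of the 4 numbers the best match was the own number. Depth is not stated and was not derived, which limits what can be said of low genes such as Tfeb.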
